A study of Sus scrofa with 4 samples.

Results

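The miR-200 family (miR-200a, miR-200b, miR-200c, miR-141 and miR-429, filed as family mir-8) and miR-375 were followed in small RNA libraries of the piglet hippocampus. The members were all rows of the families mir-8 and mir-375 in the deposited table of conserved miRNA sequences, 47 of its 2791 rows, with 37 in mir-8 and 10 in mir-375. The table of annotated pig miRNAs held 1 member, miR-429, among 321 miRNAs. Family and name chose the rows, and the pair of families was singled out with their levels in these same libraries known, so the values below are a description and carry no test.

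The study asked how hippocampal miRNAs differ after oxidative stress induced by iron. Newborn Rongchang piglets, a Chinese pig breed, came from 1 litter of 8. Iron dextran, an iron and carbohydrate complex given by injection, went into the muscle of 4 of them, 200 mg on days 3 and 4 after birth; the other 4 are labelled as injected with nothing. All carry the same genotype label ("wide type"); the sources used here do not give the age at sampling. Dorsal and ventral hippocampus were pooled within each treatment, which gave 4 libraries: iron dorsal, iron ventral, control dorsal and control ventral. Each is 1 pool of piglets with no replicate, so every interval below covers counting error only and compares libraries, not conditions. The libraries held 11396823, 12299706, 12100995 and 13839578 annotated miRNA reads in that order. Levels are in CPM, with library sizes adjusted by TMM factors. A count of 0 allows up to 3 reads, which is 0.207 to 0.282 CPM depending on the library.

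MicroRNAs guide silencing complexes to messenger RNAs through the seed, bases 2 to 8. The miR-200 family is known for holding cells in an epithelial state by repressing the transcription factors ZEB1 and ZEB2, and it is abundant in epithelia and in olfactory and pituitary tissue. In human and mouse its members come from a transcript with miR-200b, miR-200a and miR-429 and from a second one with miR-200c and miR-141. miR-375 is known from pancreatic islets, the pituitary and other neuroendocrine cells, and the miR-200 family and miR-375 are not counted among the typical miRNAs of hippocampal neurons.

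The mature sequences show why the family splits by seed and where single bases tell its members apart. They are given as the conserved table lists them, from rows that list human or mouse, with the seed in capitals. The miR-429 row lists pig among its species.
miR-200a: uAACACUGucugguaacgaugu
miR-141: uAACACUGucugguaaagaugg
miR-200b: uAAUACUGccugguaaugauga
miR-200c: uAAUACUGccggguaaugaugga
miR-429: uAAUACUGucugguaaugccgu
miR-375: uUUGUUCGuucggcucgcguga
Counted from 1 at the 5′ end, the seeds of the miR-200a and miR-200b groups differ at C4U. Within the first group miR-141 differs from miR-200a by C17A and U22G, and within the second miR-200c differs from miR-200b by U11G and A22G over 22 bases. miR-375 shares neither seed.

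The rows named after 1 miRNA did not always hold its sequence, which bears on every value for miR-141. The zebrafish row named miR-141 is 1 base from miR-200a (U22C) and 2 bases from miR-141 (A17C and G22C), and it held 6.8, 14.6, 12 and 163.3 reads in iron dorsal, iron ventral, control dorsal and control ventral. The zebrafish row named miR-200c likewise is 1 base from miR-200b (A22C) and 2 from miR-200c (G11U and G22C).
dre-miR-141-3p: uAACACUGucugguaacgaugc
dre-miR-200c-3p: uAAUACUGccugguaaugaugc
Rows were therefore also grouped by the nearest of the sequences above, with at most 1 mismatch over 20 bases. Summed this way, the 5 members of the miR-200 family gave whole numbers of reads in every library, although the single rows hold fractions; summed by name, miR-141, miR-200a, miR-200b and miR-200c did not. With names, miR-141 had 17, 24, 28 and 227 reads; by sequence it had 10, 9, 16 and 64. Values of single members below are by sequence.

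The miR-200 family stood high in a single library. All mir-8 rows together had 145 reads (13.6 CPM) in iron dorsal, 203 (16.5 CPM) in iron ventral, 224 (18.2 CPM) in control dorsal and 2150 (148 CPM) in control ventral. Control ventral was thus far above the other 3, and neighbours among those 3 were not separated by counting error: they differed by 1.21-fold (95% counting interval 0.972 to 1.51) and 1.10-fold (0.908 to 1.34). The ends of that order, iron dorsal and control dorsal, were separated, at 1.33-fold (1.08 to 1.65). The sum includes rows that list no vertebrate. Without those rows both steps had intervals that excluded 1, at 1.41-fold (1.08 to 1.85) and 1.35-fold (1.08 to 1.67). Among 278 families the family ranked 178, 177, 175 and 118 by reads. miR-375 was spread otherwise. Its family had 443 reads (41.6 CPM) in iron dorsal, 1060 (85.97 CPM) in iron ventral, 1226 (99.4 CPM) in control dorsal and 1787 (123.3 CPM) in control ventral, and each step in this order had a counting interval that excluded 1. Its low library was iron dorsal, and control ventral exceeded control dorsal by 1.24-fold (1.15 to 1.34).

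**Figure D1:**
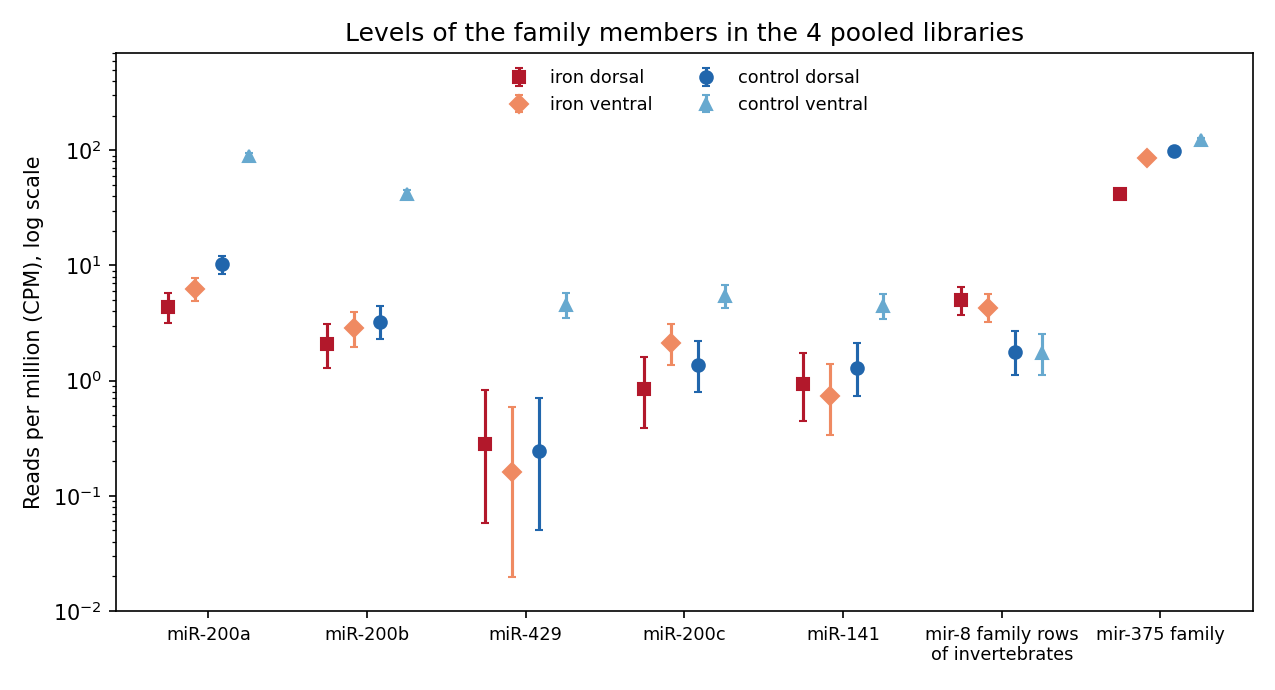
Levels of each member in the 4 libraries, as CPM on a log axis with exact Poisson 95% intervals; rows are grouped by sequence, and rows of invertebrates are shown on their own. Control ventral is highest for the 5 members of the miR-200 family and for mir-375, whereas the invertebrate rows are highest in the iron libraries.

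Of the cluster of miR-200b, miR-200a and miR-429, miR-200a was the most abundant member in each library. It had 46 reads (4.32 CPM) in iron dorsal, 77 (6.25 CPM) in iron ventral, 126 (10.21 CPM) in control dorsal and 1288 (88.9 CPM) in control ventral. miR-200b had 22 reads (2.07 CPM), 35 (2.84 CPM), 40 (3.24 CPM) and 607 (41.9 CPM) in the same order. Both exceeded 40 CPM in control ventral and stayed at or near 10 CPM or below elsewhere. miR-429 was low in all libraries, with 3, 2, 3 and 66 reads, or 0.282, 0.162, 0.243 and 4.55 CPM. The annotated table, which counts miR-429 separately, gave 3, 2, 3 and 65 reads. With 4.55 CPM at most, miR-429 is not among the 251 annotated miRNAs at 10 CPM or more. Of those, 1.99% differed at least 2-fold in either direction, with an interval that excluded 1, between iron and control in ventral hippocampus and 0.797% in dorsal hippocampus; between dorsal and ventral it was 1.99% in control and 0.797% in iron piglets. In 3 of the 4 libraries miR-429 sat at about the level that a count of 0 allows.

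The other cluster, miR-200c and miR-141, was low everywhere and less uneven. miR-200c had 9 reads (0.845 CPM) in iron dorsal, 26 (2.11 CPM) in iron ventral, 17 (1.38 CPM) in control dorsal and 78 (5.38 CPM) in control ventral. miR-141 had 0.939, 0.730, 1.30 and 4.42 CPM in that order. Control ventral was again highest for both, and the other 3 libraries did not differ from their neighbours in rank beyond counting error. The ends of that order were separated for miR-200c, with iron dorsal 2.495-fold lower than iron ventral (1.13 to 6.05). Outside these 5 members, rno-miR-3548, a row whose letters are not near any of them, had 2, 0, 0 and 2 reads, and a lancelet row equally near miR-200a and miR-141 had 2 reads in control ventral and 0 elsewhere.

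For iron against control in ventral hippocampus, the mir-8 sum was 9.01-fold lower in iron ventral than in control ventral (7.80 to 10.46). By member, miR-200a was 14.2-fold lower (11.3 to 18.2), miR-200b 14.8-fold (10.49 to 21.4), miR-141 6.05-fold (2.996 to 13.8) and miR-200c 2.55-fold (1.62 to 4.15). miR-429 was 28.1-fold lower, with an interval of 7.47 to 237 that rests on 2 reads. miR-375 was 1.43-fold lower (1.33 to 1.55), which does not reach 2-fold. Over the 5 members and miR-375, 6 of 6 were lower, with a median log2 ratio of -3.21 (-2.47 after adding 0.5 CPM to each level). The median was 0.00 over the 426 conserved miRNA names at 10 CPM or more in at least 1 library. About as many of those names were thus higher as lower. By sequence, miR-141, miR-200c and miR-429 stayed below that minimum in every library. The 5 members share 1 high library and fall in clusters, so these counts, here and below, are not separate observations. Of 188 families, 5 were at least 2-fold lower with an interval that excluded 1, or 2.66%, and mir-8 is 1 of them. Among the 426 names 1.88% were lower by this rule. Of the 8 names of the members, 4 reached 10 CPM: miR-200a, miR-200b, miR-141 and miR-375. The first 3 did so in control ventral alone, so that their place among the names compared was set by the library in which they are high. By name 3 of the 4 were lower by this rule here, all but miR-375. Just outside the minimum, the highest level of miR-200c by name was 6.42 CPM, that of miR-8 4.98 CPM and that of miR-429 4.55 CPM. Just inside it, miR-141 reached 15.7 CPM by name.

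Iron against control in dorsal hippocampus compares libraries that were both low in the miR-200 family. The mir-8 sum was 1.33-fold lower in iron dorsal than in control dorsal (1.08 to 1.65), which does not reach 2-fold. miR-200a was 2.36-fold lower (1.67 to 3.39), on the 46 and 126 reads given above. Intervals of miR-200b (1.57-fold lower, 0.910 to 2.77), miR-200c (1.63-fold, 0.687 to 4.15) and miR-141 (1.38-fold, 0.589 to 3.40) all held 1. miR-429, with 3 reads in each library, had a ratio of 1.16 (0.155 to 8.65), so a difference was not detectable at this depth. miR-375 differed more here than in ventral hippocampus: it was 2.39-fold lower in iron dorsal (2.14 to 2.67). In this comparison 3 of 188 families, or 1.6%, were at least 2-fold lower with an interval that excluded 1, and mir-375 is 1 of them. By name 1.41% were lower, with miR-200a and miR-375 among them. Among all 6 members 5 were lower, with a median log2 ratio of -0.68 (-0.51 after adding 0.5 CPM) beside -0.04 over the conserved names.

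The iron ratio of the miR-200 family thus differed between the regions, with the direction the same for the sum. On the log2 scale the dorsal ratio exceeded the ventral one by 2.76 for mir-8 (counting interval 2.39 to 3.12). It was 2.59 for miR-200a, 3.23 for miR-200b, 2.13 for miR-141 and 0.65 for miR-200c, the last with an interval of -0.68 to 1.98. For miR-375 the difference went the other way, -0.74 (-0.93 to -0.54). Each value rests on 1 pool per group, without a measure of how piglets vary.

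Dorsal against ventral in control piglets shares the control ventral library with the ventral iron comparison, so their ratios are not independent. The mir-8 sum was 8.17-fold lower in control dorsal than in control ventral (7.12 to 9.42). Of the abundant members, miR-200b was 12.9-fold lower (9.38 to 18.3) and miR-200a 8.70-fold lower (7.24 to 10.54), with overlapping intervals. miR-200c was 3.91-fold lower (2.29 to 7.04), miR-141 3.41-fold (1.95 to 6.31), and miR-429 18.7-fold on 3 reads (6.14 to 93.2). Of the families 2.13% were at least 2-fold lower with an interval that excluded 1, mir-8 among them. By name 1.64% were lower, with miR-200a, miR-200b and miR-141 among them. These names reached 10 CPM in control ventral alone, so their place among the names was again set by the library in which they are high. By sequence miR-141 stayed below that minimum in every library. Among the 6 members 6 were lower, with a median log2 ratio of -2.54 (-2.21 after adding 0.5 CPM) beside 0.02 over the conserved names.

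Dorsal against ventral in iron piglets does not use the control ventral library. The mir-8 sum was 1.21-fold lower in iron dorsal than in iron ventral (0.972 to 1.51), an interval that held 1. With library sizes taken as total annotated reads, or as the RPM divisor, the interval of this ratio excluded 1, at 0.771 (0.619 to 0.959) and 0.775 (0.622 to 0.964). Only miR-200c had an interval that excluded 1, at 2.495-fold lower (1.13 to 6.05) on 9 against 26 reads. miR-375 was 2.07-fold lower (1.85 to 2.31). In this comparison 3.72% of families were at least 2-fold lower by the same rule, mir-375 among them. By name 2.11% were lower, with miR-375 among them. Of the 6 members 4 were lower, with a median log2 ratio of -0.49 (-0.43 after adding 0.5 CPM) beside 0.02 over the conserved names; miR-429 and miR-141 had ratios of 1.74 (0.199 to 20.8) and 1.29 (0.470 to 3.58). Without the control ventral library, then, the mir-8 sum differed by less than 2-fold in both comparisons, and miR-375 by more than 2-fold in both. Rows of mir-8 that list a vertebrate also stayed under 2-fold, but with intervals that excluded 1. They were 1.89-fold lower for iron in dorsal hippocampus and 1.41-fold lower for dorsal against ventral in iron piglets. These comparisons share the iron dorsal library, so their ratios are not independent either.

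**Figure D2:**
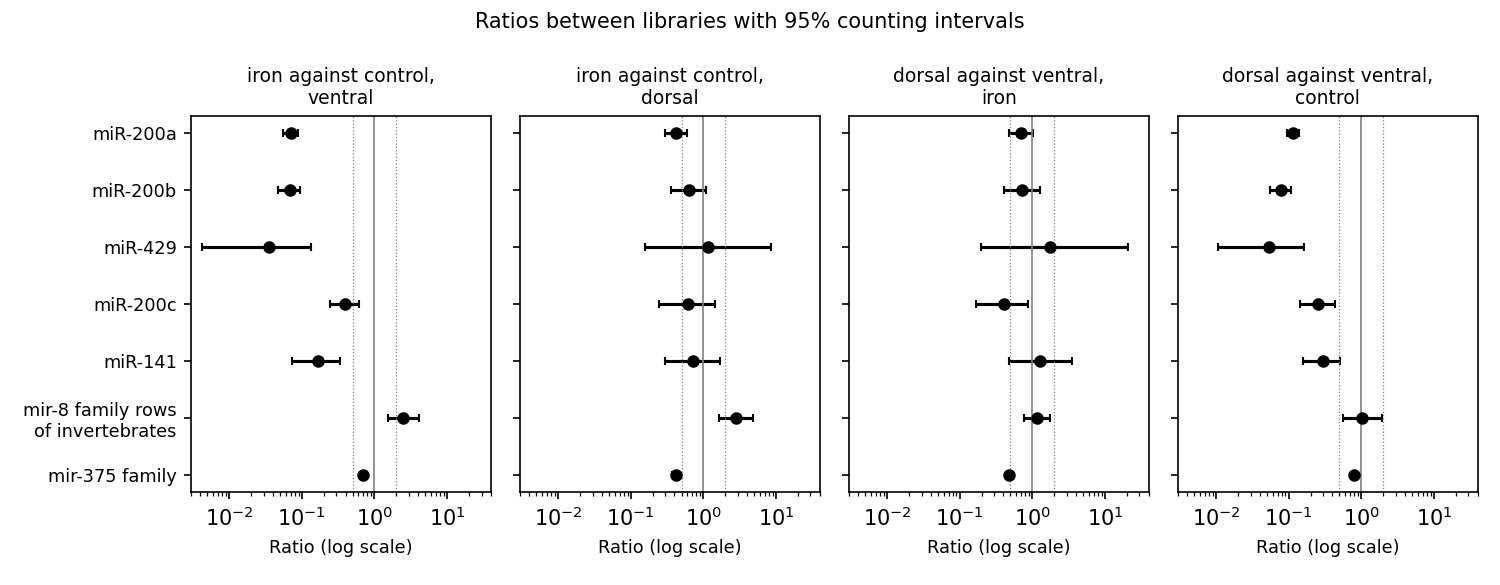
Ratios between libraries on a log axis, with exact conditional binomial 95% intervals; the solid line marks equal levels and the dotted lines 2-fold. The 5 members of the miR-200 family lie left of the lower dotted line in the 2 comparisons that use control ventral. In the other 2 comparisons most lie nearer to 1. Exceptions left of the line are miR-200a in iron against control, dorsal (0.423) and miR-200c in dorsal against ventral, iron (0.401). miR-375 lies left of the line in the 2 comparisons that use iron dorsal.

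The make-up of the family also differed between libraries, which scaling cannot affect. Of the reads in rows that list a vertebrate, miR-200a, miR-200b and miR-429 together held 77.2% in iron dorsal (exact binomial 95% interval 67.2% to 85.3%), 76.0% in iron ventral (68.4% to 82.6%), 83.7% in control dorsal (77.8% to 88.5%) and 92.3% in control ventral (91.1% to 93.4%). miR-200c and miR-141 held 20.7% (12.9% to 30.4%), 23.3% (16.8% to 30.9%), 16.3% (11.5% to 22.2%) and 6.68% (5.66% to 7.83%). In control ventral the share of this second cluster lay below the intervals of the other 3 libraries, which overlapped. With rows taken by name the order was the same, at 28.3%, 33.3%, 22.3% and 15.0%. By seed group the libraries were closer. Rows of miR-200a and miR-141, including a sheep row that starts 1 base later, held 60.9%, 57.3%, 70.3% and 63.6% in the same order, and the lowest interval (49.0% to 65.4%) overlapped the highest (63.5% to 76.5%). Rows of the 5p arm, the strand usually discarded, held 0 of 92, 1 of 150, 0 of 202 and 20 of 2125 reads. The upper ends of the exact binomial 95% intervals at the counts of 0 are 3.93% in iron dorsal and 1.81% in control dorsal, above the 0.941% of control ventral.

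Rows of mir-8 that list no vertebrate went against the rest of the family. There are 5, named miR-8 after the insect gene except for the lancelet row, out of 37. Together they had 53 reads (4.98 CPM) in iron dorsal, 53 (4.30 CPM) in iron ventral, 22 (1.78 CPM) in control dorsal and 25 (1.73 CPM) in control ventral. The iron libraries were higher than the control libraries in both regions, with ratios of 2.79 (1.67 to 4.82) in dorsal and 2.49 (1.52 to 4.18) in ventral hippocampus, at levels under 10 CPM. These reads made up 36.6% of all mir-8 reads in iron dorsal (28.7% to 44.9%), 26.1% in iron ventral (20.2% to 32.7%), 9.82% in control dorsal (6.26% to 14.5%) and 1.16% in control ventral (0.753% to 1.71%). Without them the family had 92 reads (8.64 CPM), 150 (12.2 CPM), 202 (16.4 CPM) and 2125 (147 CPM). Its iron ratio then was 12.1-fold lower (10.21 to 14.3) in ventral and 1.89-fold lower (1.47 to 2.45) in dorsal hippocampus, and every neighbouring pair of libraries had an interval that excluded 1. Over the 30 families in which no row lists a vertebrate, reads numbered 115 and 170 in iron dorsal and iron ventral, against 153 and 111 in control dorsal and control ventral; the iron ratio was 0.871 (0.678 to 1.12) in dorsal and 1.80 (1.41 to 2.31) in ventral hippocampus. The source of the invertebrate reads was not tested.

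**Figure D3:**
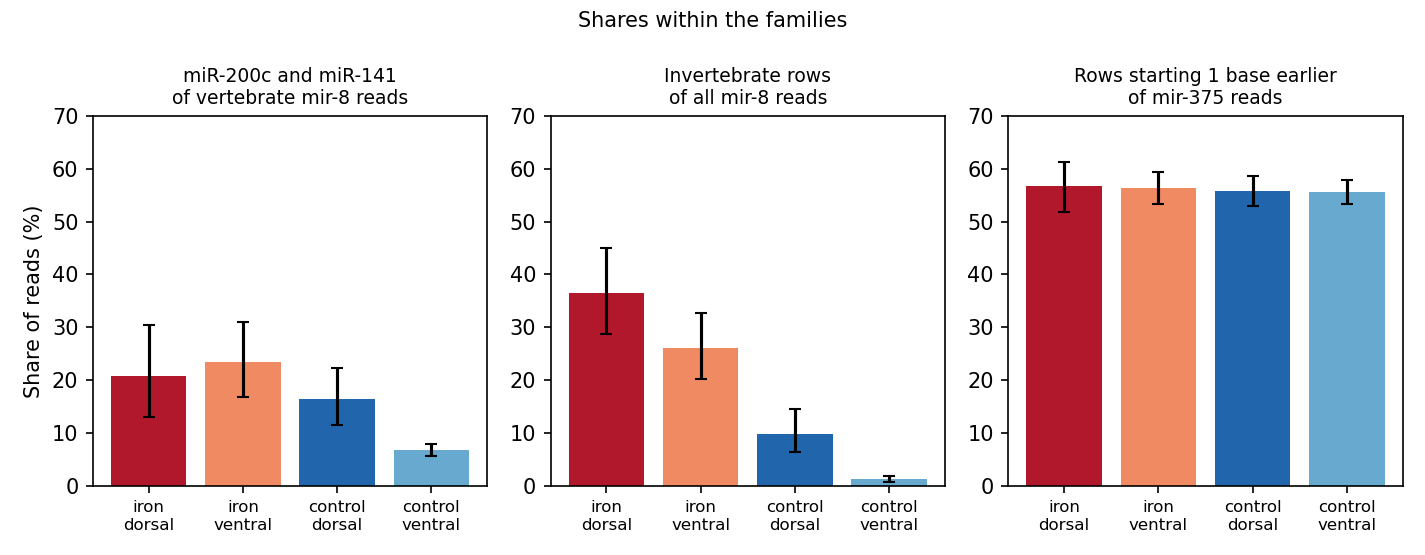
Shares of reads within the families by library, as percent with exact binomial 95% intervals. The share of miR-200c and miR-141 is smallest in control ventral (6.68%), the share of invertebrate rows runs from 36.6% in iron dorsal to 1.16% in control ventral, and the share of miR-375 rows that start 1 base earlier is near 56% throughout.

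miR-375 reads were divided mainly over 3 rows with 2 different 5′ ends, and the 5′ end sets the seed. The human row is printed above. A row of opossum and cow starts 1 base earlier, which moves the seed window by 1 base.
mdo-miR-375: uUUUGUUCguucggcucgcguga
The human row held 174, 401, 474 and 707 reads in iron dorsal, iron ventral, control dorsal and control ventral. Rows that start 1 base earlier, this one and a bat row that is 1 base longer, held 56.7% of the family's reads in iron dorsal (51.9% to 61.3%), 56.4% in iron ventral, 55.9% in control dorsal and 55.6% in control ventral (53.3% to 57.9%). All 4 intervals overlapped, so no difference in the share of these rows was detected. The sources used here do not say how reads that match both starts were divided. The share therefore describes rows, not molecules, and its intervals do not test the use of the 2 starts. A sea squirt row named miR-375 stands outside the family for want of a family name and held 1, 9, 8 and 5.1 reads; a sea squirt row named miR-200 had 1 read in control ventral.

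Among annotated miRNAs, the pattern of the mir-8 sum over the 4 libraries was most like those of miR-183 and miR-96-5p, whose cluster is a marker of the pineal gland and of sensory cells. Likeness was the root mean square difference of log2 levels centred on each miRNA's own mean, over 4 libraries and 251 miRNAs. It was 0.16 for miR-183, 0.20 for miR-96-5p and 0.94 for miR-182, followed by 1.09 for both miR-190b and miR-136, with a median of 1.39 over all. The mir-8 sum used here includes the rows that list no vertebrate, 36.6% of its reads in iron dorsal and 26.1% in iron ventral. These distances therefore do not describe the vertebrate rows alone. miR-183 stood at 16.1, 16.3, 20.1 and 131 CPM, and miR-96-5p at 8.92, 13.4, 16.9 and 99.5 CPM, in iron dorsal, iron ventral, control dorsal and control ventral. Both shared the single high library of the miR-200 family, and miR-182 did so less steeply, at 113, 97.6, 116 and 223 CPM. For miR-375 the nearest were miR-142-3p at 0.18, known from blood cells, miR-34c at 0.19, known from ciliated cells, miR-135 and miR-490-5p at 0.20 each and miR-136 at 0.25, with a median of 0.61 over all. miR-142-3p stood at 47.1, 74.9, 85.9 and 100.5 CPM, lowest in iron dorsal like miR-375.

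**Figure D4:**
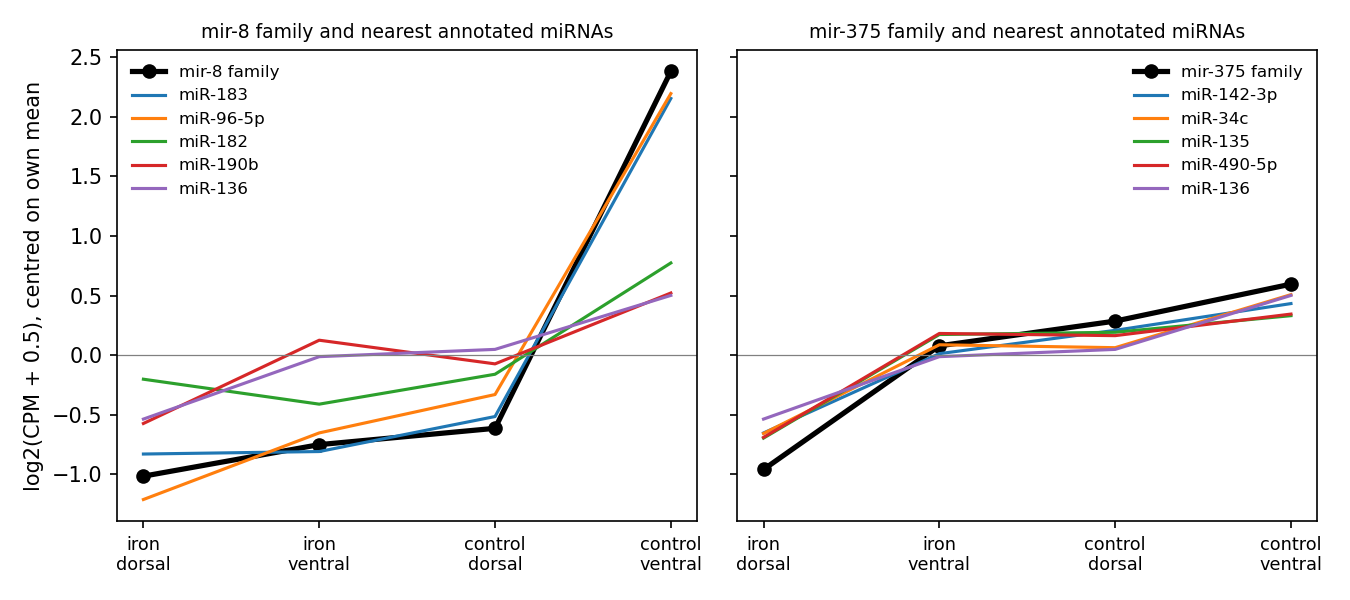
Levels of each family sum and of its 5 nearest annotated miRNAs, as log2(CPM + 0.5) centred on the mean over the 4 libraries. The mir-8 sum includes rows that list no vertebrate. miR-183 and miR-96-5p follow the mir-8 sum with a peak in control ventral, and the neighbours of mir-375 share its low point in iron dorsal.

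Marker miRNAs of other tissues that the pools could hold were set beside these values. The list of sensory epithelium and pineal markers, 3 of 3 found, summed to 138, 127, 153 and 453 CPM in iron dorsal, iron ventral, control dorsal and control ventral. Its 3 markers, miR-183, miR-96 and miR-182, are those named above as nearest in pattern to the mir-8 sum. That this list moved with the miR-200 family is therefore the same observation, not a separate one. Other epithelial markers, 3 of 3 found (miR-203, miR-205 and miR-31), did not move with the family. They summed to 146, 124, 141.5 and 132 CPM, with miR-205 at 1.41 to 3.32 CPM. The choroid plexus list, 2 of 3 found with miR-211 not found, summed to 229, 301, 308 and 392 CPM. The ciliated ependyma list, 3 of 3, summed to 4507, 7686, 7566 and 10214 CPM, lowest in iron dorsal and highest in control ventral as miR-375 was. That sum was carried by miR-34c (4194, 7028, 6910 and 9409 CPM), named above among the nearest to miR-375 in pattern. Its likeness to miR-375 is therefore the same observation, not a separate one. Both of these lists hold miR-449a. The neuroendocrine list, 3 of 3 found but with miR-375 itself among them and carried by miR-7, summed to 52713, 28937, 36565 and 49995 CPM. Neuron markers, 5 of 5 found and carried by miR-9, summed to 234183 to 261843 CPM. Within this list miR-128 ranged from 11446 CPM in control ventral to 17261 CPM in control dorsal. Blood markers ranged over 837 to 1075 CPM, vessel markers over 16024 to 21938 CPM and muscle markers over 171 to 279 CPM, each with 3 of 3 found. In bulk tissue, fewer cells of a type and less RNA per cell cannot be told apart, and the part of these markers in the results was not tested.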

How the data were processed

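Small RNA of 4 pooled hippocampus libraries was analysed. The authors deposited reads per miRNA, per the file headers. Many are fractions, so the deposited reads were treated as estimated counts. The sources used here do not say how reads were divided among rows. The deposited tables also hold RPM, per the file headers. The submitters' processing notes name cutadapt 1.2.2 and the builds Sscrofa 10.2 and susScr 3. Neither an aligner nor a counter is named in the sources used here.

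Rows were summed per family, name or nearest sequence and then rounded. Repeated annotated rows of 1 miRNA, equal to within 0.1%, were merged, leaving 321 miRNAs, of which 251 reached 10 CPM in at least 1 library. TMM factors (edgeR 4.0.16) came from these and scaled all tables. Ratios carry exact conditional binomial (Clopper-Pearson) 95% intervals, levels exact Poisson and shares exact binomial ones (scipy 1.17.1). Differences between log2 iron ratios carry normal approximations, which are rough at low counts. All these intervals cover counting error only, and amplified reads are not independent molecules. A ratio was counted at 2-fold or more with an interval that excludes 1. No p-value was computed: each group is 1 library, with 0 residual degrees of freedom. Intervals of ratios were tested on simulated Poisson counts, at levels of the annotated miRNAs that reached 10 CPM. Such counts meet the assumption of the intervals. The simulation therefore does not cover variation between pools, nor members with few reads. Alternatives were total counts, DESeq2 1.42.0 size factors, the RPM divisor, unmerged rows, unrounded reads, other minimums and identical sequences counted once.

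Members, marker lists and alternatives were chosen with earlier results of these data known; grouping by sequence, leaving out invertebrate rows and scaling to the conserved total were added after seeing the data. Named miRNAs are all members plus the 5 annotated miRNAs nearest in pattern to each family. The 8 value columns of the predicted miRNAs were not used: without a sequence column there, the planned match of predicted rows to members could not be made.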

Additional observations from a re-analysis of the deposited data

How the results depend on the processing

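Of 96 values recomputed under an alternative that could move them, 79 kept within the counting interval of the main value (counts within 1.5 times) and 0 changed direction among ratios counted at 2-fold. Under scaling and rounding alternatives the mir-8 ratio ranged from 0.106 to 0.113 for iron against control in ventral and from 0.687 to 0.759 in dorsal hippocampus, and the mir-375 ratio from 0.667 to 0.708 and from 0.384 to 0.423. For dorsal against ventral in iron piglets the mir-8 ratio ranged from 0.771 to 0.828, and its interval excluded 1 with total counts, with the RPM divisor and, at 0.710, without rows that list no vertebrate. Total count scaling moved the median of all conserved names by -0.13 (log2) for iron against control in dorsal hippocampus and by -0.10 for dorsal against ventral in iron piglets; the ratios of these families moved with it. Without rows that list no vertebrate, chosen after seeing the data, the mir-8 iron ratio was 0.0830 in ventral and 0.528 in dorsal hippocampus. Assigned by sequence, the share of miR-200a was 51.3% in iron ventral and 60.6% in control ventral, against 42.0% and 53.5% by name, and that of miR-141 was 10.9% in iron dorsal, 6% in iron ventral, 7.92% in control dorsal and 3.01% in control ventral, against 18.5%, 16%, 13.9% and 10.7% by name. The number of annotated miRNAs at least 2-fold different was 5 (iron, ventral), 2 (iron, dorsal), 5 (region, control) and 2 (region, iron). It became 9, 6, 11 and 4 with no minimum, 3, 0, 2 and 0 at 100 CPM, and 4 for iron in dorsal hippocampus with total counts. Scaling also set the direction there: 2 were higher and 0 lower with TMM factors. With total counts 1 was higher and 3 lower, and with the RPM divisor 1 was higher and 2 lower. Changes with the minimum come from the miRNAs that enter or leave the set tested, because the minimum alters no ratio. Left out of this tally are counting identical sequences once (the conserved table repeats 0), unrounded reads (most sums are whole) and the conserved total, which equals the RPM divisor. No paired analysis was possible because each group has 1 library. Depth limits miR-429, miR-141 and miR-200c outside control ventral, with 26 reads or fewer.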

Other observations

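The invertebrate families beside miR-8 did not share 1 pattern. mir-276, an arthropod family, had 32 and 62 reads in iron dorsal and iron ventral, against 19 and 32 in control dorsal and control ventral. bantam, a fly growth regulator, had 9 and 18 reads against 12 and 8. mir-2 had 33 and 26 reads against 35 and 23. mir-263 had 7.14 and 13.4 reads against 44.3 and 17.7. It had fewer reads in iron dorsal than in control dorsal, unlike miR-8, while the ventral pair lay closer together. The reads given here are not scaled to library size and carry no interval. These families were looked up after the values of miR-8 were seen, and no sequence of theirs is given.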
